A study of Mus musculus with 25 samples.

Results

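The m6A reader proteins other than YTHDC2 were followed as 7 genes, Ythdf1, Ythdf2, Ythdf3, Ythdc1, Igf2bp1, Igf2bp2 and Igf2bp3, chosen by name and read out by the authors' cluster and by library. All 7 of 7 were found among the 14103 genes of the deposited single-cell matrix. The study examined male germ cells of mice lacking or carrying altered YTHDC2, itself an m6A-binding helicase required for entry into meiosis. The libraries used here were 1 wild-type (WT) and 2 Ythdc2 knockout (KO) libraries of testis cells from postnatal day 10, sorted for a 4N DNA content, which is shared by cells after DNA replication and by cells in meiotic prophase. The sample titles carry the word embryo beside P10, and the age label was followed. The labels refer to an earlier publication for the knockout line, and the sources used here do not give its exact allele. The labels name the hybrid B6D2F1 background (C57BL/6 and DBA/2) for the series' newer mutant lines, and the strain of the WT and KO animals of these libraries is not given separately. Whether KO A and KO B, as the KO libraries are called here, came from different animals is not given either. Bulk RNA-seq and iCLIP samples of the series were not analysed here.

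N6-methyladenosine (m6A) is a methyl mark that a nuclear enzyme complex places on adenosines of mRNA, and reader proteins bind it. YTHDF1, YTHDF2 and YTHDF3 are closely related cytoplasmic proteins with a YTH domain, known for promoting decay of marked mRNAs and described in some systems as aiding translation. YTHDC1 is the nuclear YTH reader, known for roles in splicing, export and chromatin-bound RNA, and IGF2BP1, IGF2BP2 and IGF2BP3 are KH-domain proteins known for stabilising bound mRNAs. In the testis, m6A writers and readers are needed at several steps of spermatogenesis, and YTHDC2 acts when spermatogonia enter meiosis.

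WT held 1151 cells and 16342955 UMIs (unique molecular identifiers, 1 per captured RNA molecule), KO A 1522 cells and 18089957 UMIs, and KO B 1855 cells and 25447581 UMIs. The authors named 5 clusters, given numbers here. Undifferentiated spermatogonia are cluster 1, differentiating ones cluster 2 and leptotene-zygotene spermatocytes cluster 3. Their first and second mixed cluster of differentiating and leptotene-zygotene cells are clusters 4 and 5. WT, KO A and KO B gave 45, 66 and 90 cells to cluster 1 and 654, 529 and 814 to cluster 2. Cluster 3 held 427 WT cells and 0 KO cells, whereas cluster 4 held 24, 592 and 441 cells and cluster 5 held 1, 335 and 510. Genotype and cluster can therefore not be told apart after cluster 2. The 9 undifferentiated markers summed to between 650 and 961 counts per 1e6 UMIs (CPM) in cluster 1 and to at most 52.8 CPM in the other clusters of at least 20 cells. The 9 leptotene-zygotene markers summed to 5391 CPM in cluster 3 and to between 2375 and 3850 CPM in the KO cells of clusters 4 and 5. The 7 differentiating markers were not highest in the cluster named for them. They summed to between 1345 and 1566 CPM in cluster 2 and to 3288 CPM in cluster 3. In the KO cells of clusters 4 and 5 they summed to between 2892 and 4022 CPM. Stra8 (1658 CPM) and Prss50 (1521 CPM) made up most of the sum in cluster 3. Peritubular myoid markers summed to 932 to 2120 CPM and stromal markers to 521 to 699 CPM in cluster 1, and to at most 8.47 and 7.16 CPM elsewhere. Red blood cell markers stood at 444 CPM in KO A cluster 2, where 1 cell carried 10 or more somatic or globin UMIs, and at most at 1.99 CPM elsewhere. Of 34 cells with 10 or more UMIs summed over peritubular myoid, stromal and red blood cell markers, 33 were in cluster 1 (10 in WT, 10 in KO A, 13 in KO B). Over all cells the targeted gene, Ythdc2, gave 196 CPM in WT against 47.0 (KO A) and 42.6 CPM (KO B), in the direction of the labels. No barcode was shared by 2 libraries.

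The genes lie on 7 chromosomes (GRCm38.p6): Ythdf1 (ENSMUSG00000038848) at chr2:180904377-180920936, Ythdf2 (ENSMUSG00000040025) at chr4:132184916-132212256 and Ythdf3 (ENSMUSG00000047213) at chr3:16183148-16217037. Ythdc1 (ENSMUSG00000035851) lies at chr5:86803980-86836659. Igf2bp1 (ENSMUSG00000013415) lies at chr11:95957163-96005944, Igf2bp2 (ENSMUSG00000033581) at chr16:22059009-22163299 and Igf2bp3 (ENSMUSG00000029814) at chr6:49085218-49215469. Promoters in the RefSeq table for GRCm38.p6 matched 5 of the 7, with Ythdf3 and Igf2bp1 as the others. Of the 250 bases before the start, 3 are shown 5′ to 3′ on the gene's strand, which is the minus strand for each: Ythdf1 (chr2:180920937-180921186) and Ythdf2 (chr4:132212257-132212506), because these paralogues took different courses over the clusters, and Igf2bp2 (chr16:22163300-22163549), because its UMIs lay almost all in cluster 1. Capitals mark 6-base matches, on either strand, to the E-box CACGTG and to GCGGGA, the core bound by E2F6, and the search also covered CNCCTCAG, a STRA8-MEIOSIN motif.
Ythdf1: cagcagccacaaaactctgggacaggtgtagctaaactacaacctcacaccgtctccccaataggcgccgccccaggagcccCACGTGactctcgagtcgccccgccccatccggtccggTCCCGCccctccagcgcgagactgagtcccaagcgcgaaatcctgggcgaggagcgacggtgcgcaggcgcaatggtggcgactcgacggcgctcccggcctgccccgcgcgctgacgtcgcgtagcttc
Ythdf2: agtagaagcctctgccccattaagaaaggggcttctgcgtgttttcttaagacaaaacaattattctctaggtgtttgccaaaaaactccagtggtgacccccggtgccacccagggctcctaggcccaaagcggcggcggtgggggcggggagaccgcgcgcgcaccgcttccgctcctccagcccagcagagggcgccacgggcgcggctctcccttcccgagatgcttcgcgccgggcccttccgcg
Igf2bp2: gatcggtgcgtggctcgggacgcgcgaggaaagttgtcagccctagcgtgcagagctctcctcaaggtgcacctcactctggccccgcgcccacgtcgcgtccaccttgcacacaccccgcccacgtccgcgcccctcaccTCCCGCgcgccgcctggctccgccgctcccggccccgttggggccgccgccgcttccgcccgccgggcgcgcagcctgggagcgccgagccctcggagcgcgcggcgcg

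The Ythdf1 promoter held 1 E-box and 1 GCGGGA match, that of Ythdf2 held 0 matches to any of the 3 motifs, and that of Igf2bp2 held 1 GCGGGA match. Of the promoters not shown, that of Ythdc1 (chr5:86804016-86804265, plus strand) held 3 GCGGGA matches. That of Igf2bp3 (chr6:49214955-49215204, minus strand) held 1 E-box. Both of these windows lie inside the gene coordinates given above, so they precede a start within the gene and not its outer end. Among 32851 promoters of the same length, 6.02% held the E-box, 16.9% GCGGGA and 6.42% CNCCTCAG, and no member held the last. The 5 promoters had 21 to 40 CpG dinucleotides, against a median of 6 over all promoters. Igf2bp2 was the densest, with 40 CpG and 77.2% G and C against a median of 52.4%. These are descriptions of letters in the window and say nothing of binding.

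Igf2bp2 was close to confined to cluster 1. WT, KO A and KO B held 20, 18 and 41 UMIs of it there, or 20.9, 13.2 and 20.8 CPM, and the libraries' exact Poisson intervals overlapped (12.8 to 32.3, 7.82 to 20.9 and 14.9 to 28.2 CPM, counting error only). Cluster 2 held 0 UMIs in 654 WT cells, which allows a level of up to 0.309 CPM by the limit of 3 UMIs that a count of 0 allows, 0 UMIs in 529 KO A cells, which allows up to 0.483 CPM by the same limit, and 1 UMI in 814 KO B cells. Outside cluster 1 there were 8 Igf2bp2 UMIs, against 79 inside it. In cluster 1, cells with an Igf2bp2 UMI made up 22.2%, 21.2% and 30.0% of WT, KO A and KO B, and 4.44%, 12.1% and 12.2% after each cell was thinned to 5000 UMIs. In cluster 2 the unthinned share was 0%, 0% and 0.123%, at median depths of 14298.5, 9667 and 11793.5 UMIs against 18313, 17540 and 18149.5 in cluster 1.

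Most Igf2bp2 UMIs of cluster 1 lay in its germ cells and not in the cells with smooth muscle and stromal transcripts. The 33 cluster 1 cells with 10 or more somatic marker UMIs held 3 Igf2bp2 UMIs (6.46 CPM, 1.33 to 18.9). The other 168 cells held 76 (19.9 CPM, 15.7 to 24.9). These intervals overlap, so with 3 UMIs a lower level in the 33 cells is not shown beyond counting error. Ddx4, a germ cell helicase, had a UMI in 94.6% of those 168 cells and in 12.1% of the 33. Among the 168, the libraries gave 23.2 (WT), 14.6 (KO A) and 22.0 CPM (KO B) of Igf2bp2, so its level there did not come from 1 library. The other paralogues stood lower in the marker-bearing cells, Igf2bp1 at 4.30 CPM against 107 and Igf2bp3 at 8.61 against 38.2. Ythdc1 did not follow them, at 153, 158 and 134 CPM in the marker-bearing cells of WT, KO A and KO B against 133, 169 and 181 CPM in the others.

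**Figure D1:**
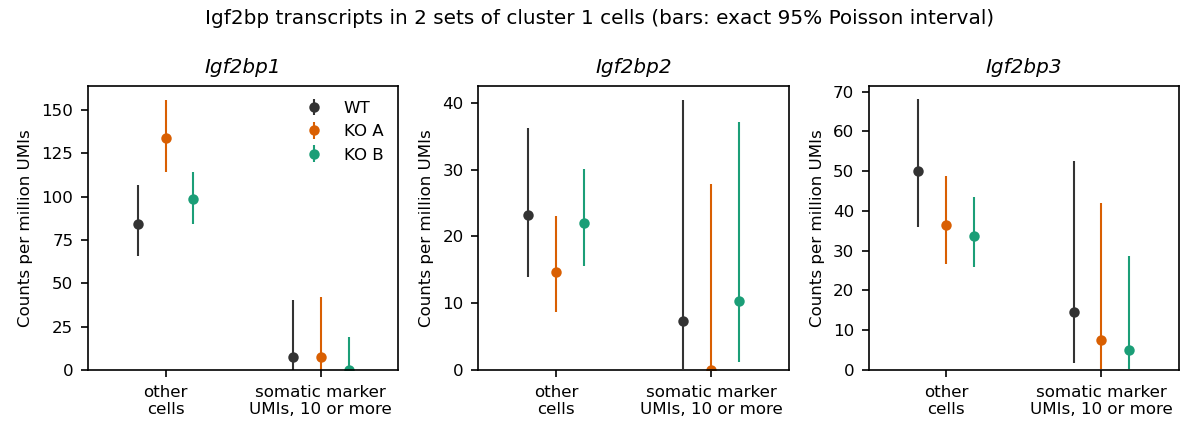
CPM (vertical axes) of Igf2bp1, Igf2bp2 and Igf2bp3 in cluster 1 cells without and with 10 or more somatic marker UMIs (horizontal axes). Points are libraries and bars exact 95% Poisson intervals; Igf2bp1 stood between 84.3 and 134 CPM in the other cells and at 0 to 7.55 CPM in the marker-bearing ones.

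Igf2bp1 and Igf2bp3 were lower in the later clusters. Igf2bp1 in WT stood at 73.2, 75.4 and 34.6 CPM in clusters 1, 2 and 3. In clusters 1, 2, 4 and 5 it stood at 122, 109, 83.6 and 74.6 CPM in KO A and at 88.8, 99.9, 84.0 and 72.4 CPM in KO B. The decline after cluster 2 was deeper in WT than in either KO library. In normalised UMIs per cell (counts divided by the authors' size factor), cluster 3 was 0.44 times cluster 2 in WT, and cluster 4 was 0.70 and 0.75 times cluster 2 in KO A and KO B, given in this order from here on. WT clusters 1 and 2 did not differ beyond their intervals, and neither did KO clusters 4 and 5. Among thinned cells of cluster 1 the variance of Igf2bp1 was 1.51, 1.41 and 1.57 times its mean, against 1.00, 0.98 and 1.10 in cluster 2, so Igf2bp1 was less evenly spread over the cells of cluster 1. Without the marker-bearing cells of cluster 1 the ratio was 1.44, 1.29 and 1.5.

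Igf2bp3 was highest in cluster 1, with 45.0 CPM in WT and 33.7 and 31.0 CPM in KO. Its WT levels after that were 18.8 CPM in cluster 2 and 11.0 CPM in cluster 3. In clusters 2, 4 and 5 KO A held 26.3, 15.5 and 20.2 CPM, and KO B held 29.2, 16.7 and 22.0 CPM. The second mixed cluster was thus 1.40 and 1.38 times the first in normalised UMIs per cell. The CPM intervals of clusters 4 and 5 overlapped in KO A (12.3 to 19.4 and 16.6 to 24.3) and KO B (13.0 to 21.3 and 18.9 to 25.5). The intervals of clusters 1 and 2 overlapped in KO A (24.7 to 45.0 and 22.4 to 30.6 CPM) and KO B (23.7 to 39.8 and 26.1 to 32.6 CPM), whereas those of WT did not (32.6 to 60.6 and 16.1 to 21.7 CPM).

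Ythdf2, the paralogue known for recruiting the deadenylase that shortens mRNA tails, was the member with the steepest increase towards meiotic prophase in WT. Its level was 69.1, 99.3 and 170.0 CPM in clusters 1, 2 and 3, and cluster 3 was 1.83 times cluster 2 in normalised UMIs per cell. In clusters 1, 2, 4 and 5 KO A gave 72.6, 81.5, 170.1 and 149 CPM and KO B gave 65.5, 89.3, 138 and 147 CPM. Cluster 4 was 2.06 and 1.51 times cluster 2 in KO A and KO B, so the higher level after cluster 2 was also seen in KO.

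Ythdf1 varied less. In WT it was at 175, 199 and 214 CPM in clusters 1, 2 and 3. In clusters 1, 2, 4 and 5 it was at 192, 193, 278 and 195 CPM in KO A and at 156, 170.5, 273 and 191 CPM in KO B, with the highest level in cluster 4. Cluster 5 was 0.76 times cluster 4 in both KO libraries. The 24 WT cells of cluster 4 stood at 326 CPM (257 to 408), above WT cluster 3, so the high level of the first mixed cluster was seen in all 3 libraries. Cluster 1 did not differ from cluster 2 beyond the intervals in any library. Without its marker-bearing cells cluster 1 stood at 194 (WT), 205 (KO A) and 168 CPM (KO B).

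Ythdf3 gave 24.1, 41.4 and 35.2 CPM in clusters 1, 2 and 3 of WT. KO A gave 42.5, 50.9, 70.8 and 56.6 CPM in clusters 1, 2, 4 and 5, and KO B gave 35.5, 46.9, 64.2 and 57.2 CPM. Both KO libraries were thus higher in cluster 4 than in cluster 2. Cluster 5 was above cluster 2 in KO B (52.1 to 62.5 against 43.0 to 51.1 CPM), whereas in KO A these intervals overlapped (50.5 to 63.3 and 45.4 to 56.8 CPM). In WT those of clusters 3 and 2 overlapped too (30.3 to 40.5 and 37.5 to 45.7 CPM). Without its marker-bearing cells cluster 1 stood at 18.3 (WT), 40.6 (KO A) and 36.0 CPM (KO B).

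Ythdc1, the nuclear reader, had levels of 136, 208 and 257 CPM in clusters 1, 2 and 3 of WT. In KO A they were 168, 217, 211 and 218 CPM in clusters 1, 2, 4 and 5, and in KO B 176, 232.5, 222 and 231 CPM. KO levels in clusters 2, 4 and 5 lay within overlapping intervals in each library, whereas WT cluster 3 (244 to 271 CPM) lay above WT cluster 2 (199 to 217 CPM). Clusters were made from these genes among others, so the differences between clusters carry no test.

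**Figure D2:**
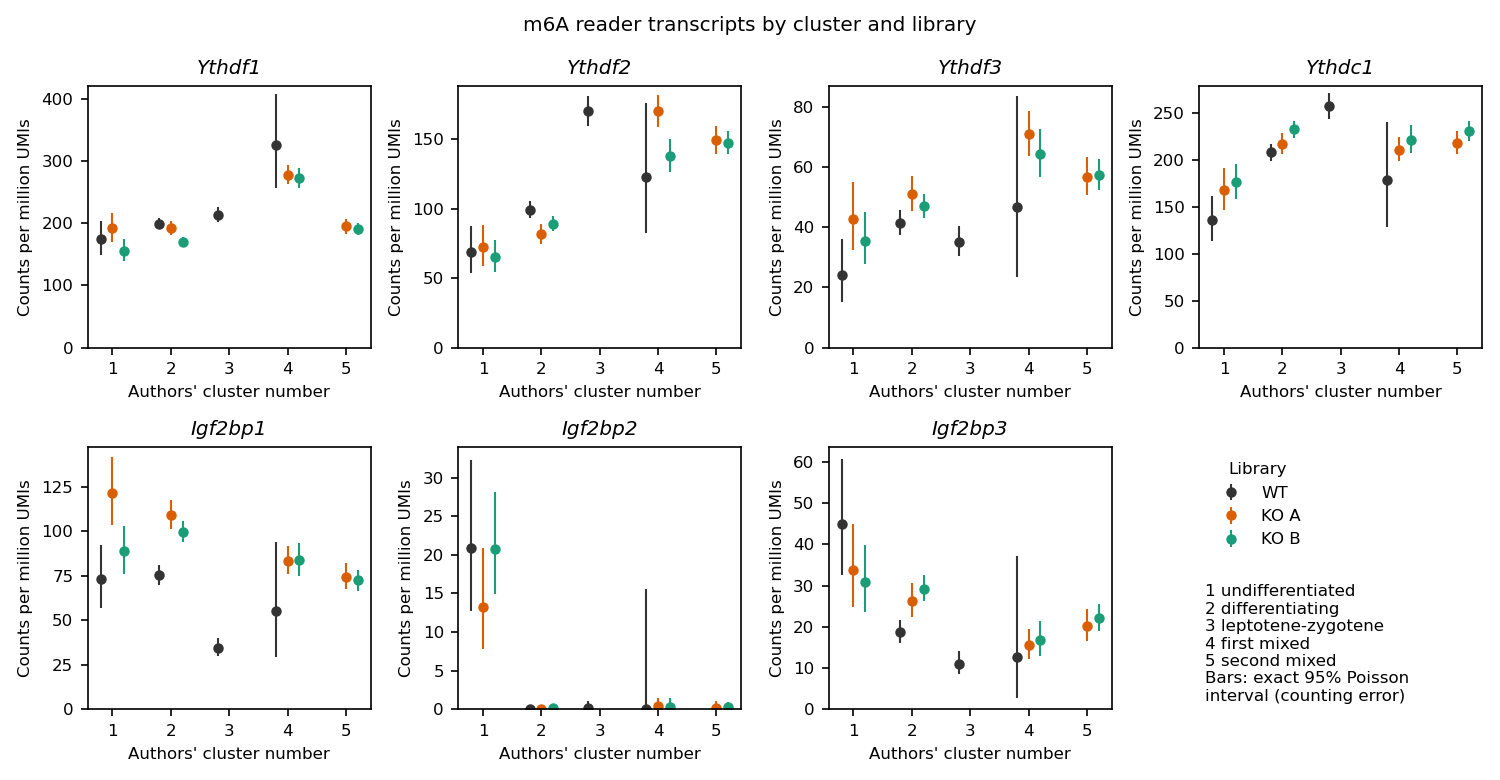
CPM (vertical axes, each from 0) of the 7 genes by the authors' cluster (horizontal axes) and library, with exact 95% Poisson intervals, for pools of at least 20 cells. Igf2bp2 lies at 13.2 to 20.9 CPM in cluster 1 and at no more than 0.40 CPM elsewhere, and Ythdf2 lies at 65.5 to 72.6 CPM in cluster 1 against 170.0 CPM in WT cluster 3.

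The make-up of the YTHDF transcripts differed between clusters. Of all Ythdf1, Ythdf2 and Ythdf3 UMIs in WT, Ythdf2 made up 25.8% in cluster 1 (exact binomial interval 20.5 to 31.6), 29.2% in cluster 2 (27.7 to 30.8) and 40.6% in cluster 3 (38.6 to 42.6). Ythdf1 made up 65.2% (59.1 to 71.1), 58.6% (56.9 to 60.3) and 51.0% (49.0 to 53.1). For both genes the intervals of clusters 1 and 2 overlapped. With thinned cells the order of these clusters turned, with Ythdf1 at 53.3% and 58.1% and Ythdf2 at 33.3% and 29.0%. The Ythdf2 share of WT cluster 3 stayed higher, at 40.4% with thinned cells. In clusters 2, 4 and 5 the Ythdf2 share was 25.1%, 32.8% and 37.2% in KO A, and 29.1%, 29.0% and 37.3% in KO B. Ythdf3 made up 12.2% of the WT UMIs in cluster 2 and 8.39% in cluster 3, and 13.5% to 15.7% in clusters 2, 4 and 5 of KO. These shares are of UMIs and are not scaled by transcript length, so they give the mix of molecules captured and no ranking of the paralogues. After thinning, cells in which no YTHDF paralogue had a UMI made up 28.9% of WT cluster 1, 18.8% of cluster 2 and 12.2% of cluster 3. Before thinning these were 4.44%, 2.14% and 0.703%. Of the 45 WT cells of cluster 1, 10 carried 10 or more somatic marker UMIs. Ythdf1, Ythdf2 and Ythdf3 stood at 58.1, 36.3 and 58.1 CPM in these, against 194, 74.6 and 18.3 CPM in the other 35. Only for Ythdf1 did the intervals not overlap. The marker-bearing cells enter the cluster 1 shares and percentages above, which were not computed without them.

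**Figure D3:**
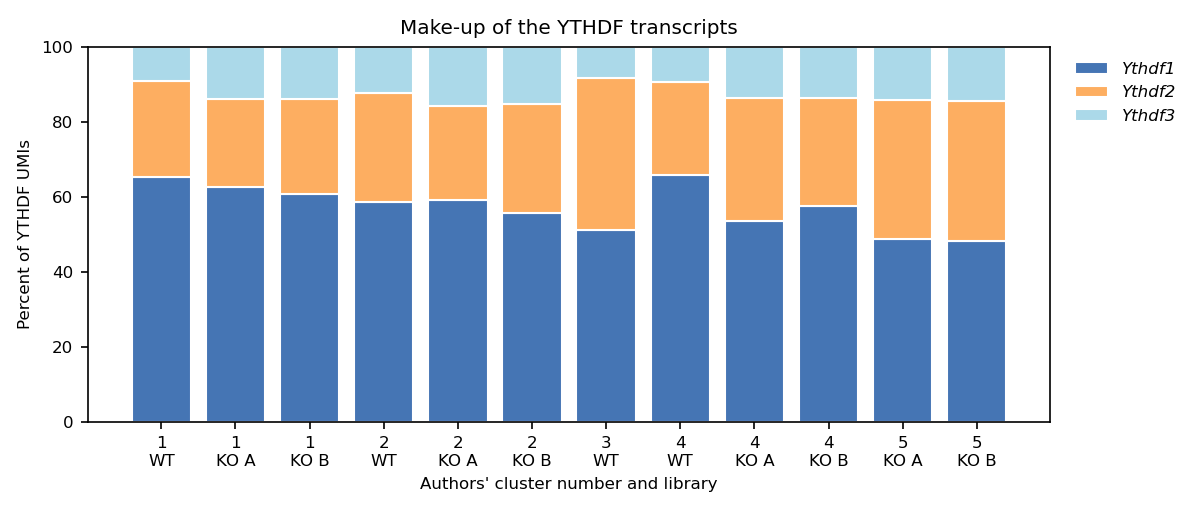
Percent of the summed Ythdf1, Ythdf2 and Ythdf3 UMIs (vertical axis) taken by each gene, by the authors' cluster and library (horizontal axis), for pools of at least 20 cells. The Ythdf2 part is 40.6% in WT cluster 3 and 37.2% and 37.3% in KO cluster 5, and the Ythdf3 part is smaller in WT than in KO cluster 2 at 12.2% against 15.7% and 15.3%.

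To compare genotypes, the mean normalised UMIs per cell of each library were tested with limma on log2(value + 0.01) over all genes with a mean of at least 0.05, and a gene was called at a Benjamini-Hochberg adjusted p under 0.05. The spread came from the KO libraries, with 1 residual degree of freedom, and WT, a single library, had to be taken as equally variable. The p-values therefore reflect variation among these libraries alone, and it may be technical. In these pooled cells, fewer cells of a kind and less RNA per cell cannot be told apart.

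In cluster 1 no member differed between KO and WT by this test. Igf2bp1 stood at 0.781 normalised UMIs per cell in WT against 1.58 and 0.941 in KO, with KO B nearer to WT than to KO A (log2 difference 0.63, SE 0.23, limma adjusted p = 0.145). Of the 7 members tested 0 were called, against 2.84% of all genes tested. At an unadjusted p under 0.05 there was 1, Igf2bp1, and edgeR with TMM and DESeq2 each called 0 (1 and 0 at an unadjusted p under 0.05). With the 2 cells called as doublets in this cluster left out, Igf2bp1 was called (adjusted p = 0.0432). Igf2bp2 was at 0.197 in WT and at 0.159 and 0.280 in KO, so WT lay between the KO libraries. Cells with somatic marker UMIs made up 22.2%, 15.2% and 14.4% of the cluster in WT, KO A and KO B. Without them 0 members were called.

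In cluster 2, where each library had at least 529 cells, 0 of 6 members tested were called, against 4.3% of all genes. At an unadjusted p under 0.05 there were 3. Igf2bp1 stood at 0.875 in WT and 1.19 and 1.12 in KO normalised UMIs per cell (log2 difference 0.40, SE 0.12, limma adjusted p = 0.0712). Igf2bp3 stood at 0.2001 in WT and 0.251 and 0.308 in KO (0.45, SE 0.19, limma adjusted p = 0.159), and Ythdf2 at 1.10 in WT and 0.811 and 0.914 in KO (-0.35, SE 0.12, limma adjusted p = 0.110). For these 3 both KO libraries lay on the same side of WT. The same held for Ythdf1 and Ythdf3, so it does not set the 3 apart. The count of calls depended on the tool: edgeR with TMM called Igf2bp1 (adjusted p = 0.0385) and Igf2bp3 (0.0453), where it called 1412 of 9435 genes, and DESeq2 called 0, where it called 50. With cells thinned to 5000 UMIs limma called Igf2bp1 (0.45, adjusted p = 0.031) and Igf2bp3 (0.70, adjusted p = 0.0479). Ythdc1 was between the KO libraries in WT, at 2.34 against 2.24 and 2.49, with an interval of the difference from -0.26 to 0.28. For Ythdf1 the interval ran from -0.48 to 0.05 and for Ythdf3 from -0.14 to 0.45.

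In the pool of clusters 3, 4 and 5, 3 members were higher and 2 lower in KO than in WT. Igf2bp1 stood at 0.396 normalised UMIs per cell in WT against 0.819 and 0.802 in KO, whose mean was 2.05 times WT (log2 difference 1.02, SE 0.12, limma adjusted p = 2.73e-17, edgeR 1.7e-05, DESeq2 0.000188). Ythdf3 stood at 0.398 in WT and 0.665 and 0.620 in KO, 1.61 times WT (0.68, SE 0.12, limma adjusted p = 1.13e-07, edgeR 0.00175, DESeq2 0.0364). Igf2bp3 stood at 0.129 in WT and 0.180 and 0.203 in KO (0.53, SE 0.18, limma adjusted p = 0.00668, DESeq2 0.218). Ythdc1 stood at 2.96 in WT and at 2.18 and 2.33 in KO (-0.39, SE 0.10, limma adjusted p = 0.000243, DESeq2 0.0146), and Ythdf2 at 1.98 in WT and 1.65 and 1.49 in KO (-0.33, SE 0.10, limma adjusted p = 0.00204, DESeq2 0.053). Ythdf1 was at 2.53 in WT and 2.52 and 2.35 in KO, with an interval of the log2 difference from -0.25 to 0.14, and was not called.

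These 5 of 6 members called stand beside 66.5% of all genes called in the same clusters, so a call here does not set a member apart. The median log2 difference was 0.24 over the 6 members and 0.08 over all genes tested. The spread was fully shared across genes in this fit (infinite prior degrees of freedom), and WT entered with 452 cells against 927 and 951. With cells thinned to 5000 UMIs, which moved the median of all genes to 0.22, the 3 higher calls were found and the 2 lower ones were not: Ythdc1 differed by -0.24 (adjusted p = 0.0721) and Ythdf2 by -0.10 (adjusted p = 0.381). Igf2bp3 then differed by 0.95 (adjusted p = 0.00252). Median UMIs per cell in these clusters were 12091.5 (WT), 9527 (KO A) and 11781 (KO B). The median mitochondrial share of UMIs, a sign of RNA quality, was 5.56%, 8.78% and 6.04% in clusters 3 to 5, and 5.68%, 9.79% and 7.03% in cluster 2. It was thus higher in both KO libraries than in WT, and its part in the differences was not tested.

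After cluster 2, only cluster 4 held at least 20 cells of both genotypes. Its 24 WT cells gave 178 CPM of Ythdc1 (128 to 241) against 211 and 222 CPM in KO. For Ythdf2 they gave 123 CPM (82.3 to 176) against 170.1 and 138 CPM. These members, lower in KO in the pool, stood higher in KO there, but every KO level lay within the WT interval. Igf2bp1, Ythdf3 and Igf2bp3 were higher in KO there too, and every KO level of these members also lay within the WT interval. With 24 WT cells, 2 of them called as doublets, no direction is shown in cluster 4 for any of these members. WT cells were nearly all in cluster 3 and KO cells all in clusters 4 and 5. Each mixed cluster of KO was therefore also set against WT cluster 3, a comparison added after the data were seen. The first mixed cluster gave 4 called members of 6, with 64.4% of all genes called, and the second 6 of 6, with 63.5%. Ythdf1 differed in sign between them, with 0.13 (adjusted p = 0.259) for the first and -0.27 (adjusted p = 0.00526) for the second. Igf2bp3 was not called against the first (0.29, adjusted p = 0.274).

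**Figure D4:**
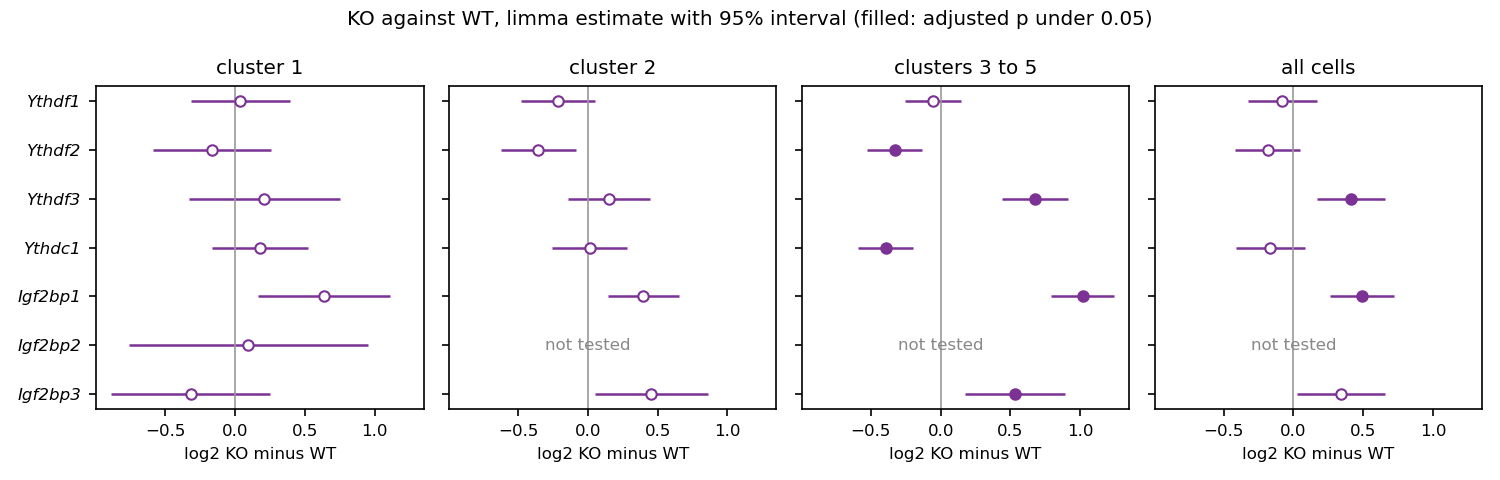
log2 difference of KO minus WT (horizontal axes) with limma's 95% interval for each gene (vertical axis) in 4 sets of cells; filled points have an adjusted p under 0.05. In clusters 3 to 5 Igf2bp1 lies at 1.02 and Ythdc1 at -0.39, while 0 points are filled in clusters 1 and 2.

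The step from cluster 2 to clusters 3, 4 and 5 was then compared between genotypes, as the difference of the differences. It differed for 3 of 6 members, with 51.2% of all genes called. As in clusters 3 to 5, the spread was fully shared across genes in this fit (infinite prior degrees of freedom). For Igf2bp1 the step was higher in KO by 0.62 (SE 0.13, limma adjusted p = 1.53e-05, edgeR interaction 0.00167), and for Ythdf3 by 0.52 (SE 0.15, limma adjusted p = 0.00199, edgeR 0.0324). For Ythdc1 it was lower in KO, at -0.41 (SE 0.10, limma adjusted p = 0.000346, edgeR 3.06e-05). The step was not called for Ythdf1 (0.16, interval -0.05 to 0.36), Ythdf2 (0.03, -0.21 to 0.26) or Igf2bp3 (0.08, -0.36 to 0.51). Ythdf2 and Igf2bp3, called in clusters 3 to 5, therefore had no called difference in the step.

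Over all cells of each library, where the mix of clusters also enters, 2 of 6 members tested were higher in KO and 0 lower, with 33.1% of all genes called. Igf2bp1 stood at 0.683 in WT and 0.980 and 0.950 in KO (log2 difference 0.49, SE 0.11, limma adjusted p = 0.00143), and Ythdf3 at 0.442 in WT and 0.610 and 0.571 in KO (0.41, SE 0.12, limma adjusted p = 0.00992). DESeq2 called neither (adjusted p = 0.071 and 0.175) and had 2 members at an unadjusted p under 0.05. Igf2bp3 stood at 0.184 in WT and at 0.215 and 0.257 in KO (0.34, limma adjusted p = 0.0885). With thinned cells its difference was 0.68 and called (adjusted p = 0.00152), and without KO B it was 0.22. Ythdf1, Ythdf2 and Ythdc1 differed by -0.08, -0.19 and -0.17 and were not called.

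The rest of the m6A pathway was read from lists of genes. Of 14 writers and erasers, the enzymes that place or remove the mark and their partners, 0 were higher and 4 lower in KO over all cells: Zc3h13 (-0.54), Trmt112 (-0.37), Mettl16 (-0.35) and Mettl14 (-0.34, not called by edgeR at an adjusted p of 0.14). With 33.1% of all genes called over all cells, 4 of 14 is no more than that share. In clusters 3 to 5, 4 were higher and 5 lower, or 9 of 14, with 66.5% of all genes called there. Zc3h13, which anchors the writer complex in the nucleus, differed by -0.89 and Mettl14, the partner of the catalytic subunit, by -0.60. Alkbh5, a demethylase, differed by -0.39 and Wtap, the complex's adaptor, by 0.45. In clusters 1 and 2, 0 of the 14 were called by limma, where 2.84% and 4.3% of all genes were called. The list's median log2 difference was 0.01 in clusters 3 to 5, against 0.08 over all genes.

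Of 10 other proteins proposed to bind m6A, Ythdc2 included, 2 were higher and 6 lower in clusters 3 to 5, beside the same 66.5% of all genes, with a median of -0.30 against 0.08 over all genes. Ythdc2, the targeted gene, was among the 6 lower (-2.53) and enters that median, so its call follows from the knockout. Fmr1 and Fxr2, related RNA-binding proteins of the fragile X family, differed by -1.01 and -0.98, and Rbmx, a nuclear ribonucleoprotein, by 0.94. In cluster 2 the only call in this list was Ythdc2 itself (-1.82, limma adjusted p = 2.22e-05).

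Among 7 cofactors of the YTHDF proteins, 2 were higher and 1 lower in clusters 3 to 5. Read against the 66.5% of all genes called there, neither this list nor the next 2 is set apart by its count. Pop1, a subunit of the ribonuclease that cleaves YTHDF2-bound RNA, differed by 0.84 there and by 0.62 in cluster 2 (limma adjusted p = 0.0248, edgeR 0.000551, DESeq2 0.235). Cnot1, the scaffold of the CCR4-NOT deadenylase, differed by 0.40, and Eif3a, a translation initiation subunit, by -0.27 (not called by edgeR at an adjusted p of 0.0524). Of 6 cofactors of YTHDC1, Setdb1, a histone methyltransferase, differed by -0.89 and Cpsf6, a 3′ processing factor, by -0.55. Nxf1, the mRNA export receptor, differed by 0.34 but was not called by edgeR (adjusted p = 0.102). Of 6 cofactors of the IGF2BP proteins, Syncrip (0.46), Hnrnpu (0.54) and Ybx1 (0.29, not called by edgeR at an adjusted p of 0.0554) were higher and Matr3 (-0.69) was lower. All are RNA-binding proteins.

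The genes whose levels ran closest to each member's over the 12 pools of cluster and library with at least 20 cells were taken by Pearson correlation among 6673 genes. For Ythdf2 these were Pex7, a peroxisomal import receptor (r = 0.98), and BC004004 (0.97). For Ythdf1 they were Nup93 (0.93), a nuclear pore protein, Anapc5 (0.93) and Ate1 (0.92). For Ythdf3 they were Ptp4a3 (0.94), Nadk (0.94) and Rmnd1 (0.93). Ythdc1 ran with Ccdc90b (0.95), Mettl14 (0.95) and Gstz1 (0.93), so a writer subunit was among its 3 closest. For Igf2bp1 they were Tnip1 (0.96), Crkl (0.94) and Traip (0.94), and for Igf2bp3 Pms1 (0.97), Rangrf (0.97) and Metap1d (0.96). Among the members, Igf2bp1 and Igf2bp3 ran together (0.68), and Igf2bp3 ran opposite to Ythdf1 (-0.86). The 12 pools share 3 libraries and their depths, and the closest of many genes are high by selection, so these are descriptions.

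The authors' deposited table gives each gene a score for a U-rich motif, and it gave Ythdf1 a score of 0.049, at or above that of 99.0% of the 14103 genes. The median gene in the authors' deposited table had 0.011. By the authors' deposited table Ythdc1 had 0.035 (96.5%), Ythdf3 0.029 (92.9%), and Ythdf2 and Igf2bp3 0.026 each (89.7%). In the authors' deposited table Igf2bp2 had 0.018 (73.6%) and Igf2bp1 0.013 (57.6%). All 7 members thus lay above the median of the 14103 genes. Among the genes tested over all cells, the score of Igf2bp1 was at or above that of 51.9%, near the middle, and that of Igf2bp2 at or above 69.1%. Igf2bp1, the member with the largest difference between KO and WT in clusters 3 to 5, had the lowest score. A link between score and difference was not tested. The sources used here do not say how the score was computed.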

How the data were processed

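The members and gene lists were chosen with earlier results of these data known. Per the submitters' processing notes, tools include Cell Ranger 3.0.2 and Scanpy, and the builds named are mm10 and GRCm38. The authors deposited a matrix of natural log values, ln(1 + count/size factor), beside cell tables with UMI counts, mitochondrial fraction and cluster, and a gene table with a U-motif score. Counts recovered by inverting this scaling were whole for 100% of values above 0 (within 0.05), and the gene number matched the deposited one in 4528 of 4528 cells. They hold 99.9% of the deposited UMIs.

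Every cell held at least 3000 genes and under 20.0% mitochondrial UMIs. The KO libraries were told apart by the deposited sample number and could not be tied to a particular KO sample. Scrublet in scanpy 1.11.5 called 22 cells doublets, which were kept. Values per library were tested with limma 3.58.1 in R 4.3.3 (empirical Bayes with a trend, 1 residual degree of freedom), since the files hold normalised values. The prior degrees of freedom were 25.0 in all cells, 23.7 in cluster 1 and 11.0 in cluster 2. They were infinite in clusters 3 to 5 and in the step. edgeR 4.0.16 and DESeq2 1.42.0 on the recovered counts were alternatives. For clusters 3 to 5 edgeR called 5508 of 9299 genes and limma 6183. A log2 change is on the log2(value + 0.01) scale, which understates changes of low genes. The fits were tested on simulated data, where genes with no change were called more often in clusters 3 to 5 than in the other sets of cells. The named genes are all 7 members, Ythdc2, up to 4 called genes by smallest p per list, and the 3 closest genes for each member at 20 CPM or more, of which 1 is not reported here. Marker lists for Sertoli, Leydig, endothelial and macrophage cells summed to at most 88.8, 4.57, 2.03 and 1.09 CPM in any cluster. The matrix held 6 of 7 Sertoli, 1 of 5 Leydig, 1 of 4 endothelial and 1 of 5 macrophage markers. The Leydig, endothelial and macrophage values thus each rest on 1 gene (Star, Pecam1 and Cd68) and cannot show these cells to be absent. Intervals cover counting error only.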

Additional observations from a re-analysis of the deposited data

Results flagged for a closer look

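The course from cluster 2 to clusters 3, 4 and 5 differed between genotypes for 3 members by a test of the difference itself. These are 3 of 6 members tested, beside 51.2% of all genes called in the same test, so the count does not set the members apart. The difference, KO minus WT, was 0.62 for Igf2bp1, 0.52 for Ythdf3 and -0.41 for Ythdc1 on the log2 scale, and each was called by limma (adjusted p = 1.53e-05, 0.00199 and 0.000346). These p-values rest on a spread fully shared across genes (infinite prior degrees of freedom). Under the 5 alternatives run for this test all 3 kept their direction and their call. The later cells of WT and KO lie in different clusters, so genotype and cluster cannot be told apart here.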

How the results depend on the processing

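Under the alternatives, 287 differences of single members kept direction and side of the threshold, 8 gained a call, 7 lost one and 14 turned sign, none of the last called. The count of members called moved as follows: over all cells to 0 with DESeq2 and 3 with thinned cells, in cluster 1 to 1 without doublets, in cluster 2 to 2 with edgeR and TMM, 1 with limma and TMM and 2 with thinned cells, and in clusters 3 to 5 to 3 with DESeq2, 3 with thinned cells, 4 of 5 tested with the filter at a mean of 0.2, and 4 and 6 for the first and second mixed cluster alone. Signs turned for Ythdf1 with thinned cells over all cells (0.052) and in clusters 3 to 5 (0.089), and for KO of the first mixed cluster (0.13). In cluster 1 Ythdf1 turned with DESeq2 (-0.067), edgeR with RLE (-0.076) or TMM (-0.074), limma with TMM (-0.068) and without cells of other types (-0.026). Igf2bp2 turned there with DESeq2 (-0.35), edgeR with RLE (-0.31) or TMM (-0.31) and limma with TMM (-0.38), and Igf2bp3 with thinned cells (0.14). Ythdf2 turned in the step with the edgeR interaction (-0.084). The order of WT clusters 1 and 2 in the Ythdf1 and Ythdf2 shares also turned with thinned cells. The cause of these changes was not tested.

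Over all genes, calls ranged with the setting from 1212 (DESeq2) to 3583 (no filter) in all cells, from 0 (no filter) to 544 (without doublets) in cluster 1, from 3 (no filter) to 1445 (limma with TMM) in cluster 2, and from 3602 (DESeq2) to 6688 (no filter) in clusters 3 to 5, against 3188, 318, 406 and 6183 as reported. Thinned cells raised the higher share of calls in clusters 3 to 5 from 56.3% to 68.7% and in all cells from 55.2% to 74.1%. Leaving out either KO library gave 50 values with no test, of which 3 turned sign (Ythdf1 and Igf2bp2 in cluster 1, Ythdc1 in cluster 2, none called). No paired analysis was possible because the single-cell groups are 1 WT and 2 KO libraries whose numbers do not pair them, and the groups with shared numbers were not analysed here. Low counts limit Igf2bp2, with 87 UMIs in all.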
